A study of Mus musculus with 4 samples.

Results

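Proximal tubule cells that still carried Slc34a1, the sodium-phosphate cotransporter of the brush border, after ischemia-reperfusion injury (IRI) were picked out of mouse kidney single-cell libraries by a fixed gate. A barcode entered the gate with at least 500 UMIs (unique molecular identifiers, 1 per captured transcript), at least 300 genes and at most 50% mitochondrial UMIs, and with at least 10 Slc34a1 UMIs per 10000 UMIs, under 3 for Vcam1, under 3 for Havcr1 and under 20 for the sum of Tyrobp, Fcer1g and Ctss. The gate held 280 cells of the 3 IRI libraries, of 17864 barcodes kept there and 24410 in the series. They were 84 day 2 cells, 48 day 7 cells and 148 day 30 cells, chosen by these measured values, and they were set against the 3500 untreated cells that passed the same gate.

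The kidneys came from BAC-CluGFP mice, in which a bacterial artificial chromosome ties green fluorescent protein to clusterin (Clu), and GFP-positive cells were sorted after enzymatic digestion and captured for droplet 3′ single-cell RNA sequencing. The 4 groups were IRI with 35 min of ischemia sampled at day 2 (labelled 48hr), day 7 and day 30, and untreated kidney, all from the same transgenic line and all sorted for GFP. The age and strain background of the mice are not in the labels, and a cell type label shared by all 4 samples speaks of cells after IRI, against the treatment label of the untreated one, which was followed. The gated cells come from a GFP sort and not from the tubule as a whole. No GFP reading per cell was analysed. The title of the series asks whether clusterin reporter cells mark maladaptive repair. Each group was 1 library and the labels do not say how many animals were behind it, so no difference between groups has a replicate check, no p-value was computed, and every interval covers counting error only.

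The proximal tubule reclaims most filtered phosphate, glucose, amino acids and protein. Its early segment (S1) takes up glucose and lactate with low-affinity, high-capacity carriers, its straight segment (S3) carries organic ion and amino acid transporters such as Slc7a13, and megalin (Lrp2) and cubilin (Cubn) drive endocytosis of filtered protein along its length. After ischemia, tubule cells lose transporters and switch on injury genes such as Havcr1 (KIM-1), Lcn2 and Spp1, and cells that do not redifferentiate keep Vcam1 and inflammatory genes. The mouse proximal tubule also has a male-biased program driven by androgen, of which Kap (kidney androgen regulated protein) is the best known member.

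In the share of kept barcodes, the gate took 0.935% at day 2 (84 of 8988, exact binomial 95% interval 0.746 to 1.16%), 2.49% at day 7 (48 of 1930, 1.84 to 3.28%) and 2.13% at day 30 (148 of 6946, 1.80 to 2.5%), against 53.5% of untreated barcodes (3500 of 6546, 52.3 to 54.7%). All 3 IRI intervals lay below the untreated one, and those of days 7 and 30 overlapped. Depth differed between the libraries: a gate cell had a median of 11114, 23857 and 10166.5 UMIs at days 2, 7 and 30, against 3793.5 in untreated cells. The shallowest barcode of the day 7 library had 18362 UMIs, against 3881 at day 2, 5976 at day 30 and 2335 in the untreated library, so shallower cells were not compared at day 7. With that total as the minimum in every library the shares were 1.18%, 2.49% and 3.44% at days 2, 7 and 30, against 60.4% of untreated barcodes.

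**Figure D1:**
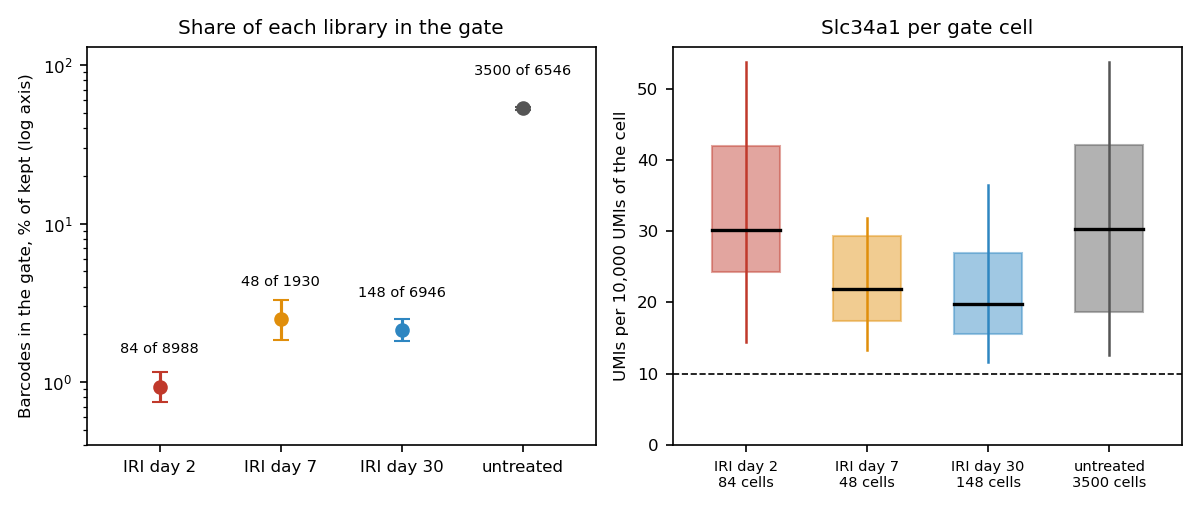
Left, percent of kept barcodes that passed the gate in each library, on a log axis, with exact binomial 95% intervals and the cell numbers. Right, Slc34a1 UMIs per 10000 in each gate cell as box (quartiles), bar (median) and line (10th to 90th percentile), with the gate's minimum of 10 dashed; the IRI shares ran from 0.935% to 2.49%, against 53.5% in the untreated library.

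The values that the cells were selected on are a description. Slc34a1 had a median of 30.1, 21.9 and 19.8 UMIs per 10000 in gate cells of days 2, 7 and 30, against 30.3 in untreated gate cells. Just inside the minimum, at 10 to 12 per 10000, lay 4, 3 and 19 cells of days 2, 7 and 30, against 264 untreated cells, and just outside, at 8 to 10 with the other limits met, lay 2, 4 and 19 cells, against 287 untreated cells. Lrp2 was at 865, 753 and 1130 CPM (counts per 1000000 UMIs, summed over cells) just inside at days 2, 7 and 30, against 520 CPM in untreated cells, and at 3205, 332 and 1102 CPM just outside, against 396 CPM. Among all barcodes with Slc34a1 at 10 or more, 7 of 98 at day 2 (7.14%), 27 of 76 at day 7 (35.5%) and 39 of 195 at day 30 (20.0%) missed the gate on Vcam1 or Havcr1 alone, against 47 of 3569 untreated barcodes (1.32%). Within the gate, where each cell was held under 3 per 10000, Vcam1 summed to 18.8, 64.0 and 63.2 CPM at days 2, 7 and 30, against 1.73 CPM in untreated cells.

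Lrp2, which the gate did not use and which served as the marker of the proximal tubule, had a UMI in 84 of 84, 48 of 48 and 147 of 148 gate cells at days 2, 7 and 30, against 3226 of 3500 untreated gate cells. Thinned to 2000 UMIs per cell the shares were 91.7%, 72.9% and 79.7%, against 80.2%. In immune cells, which should lack Lrp2, they were 0.701%, 3.82% and 3.98%, against 49.4%. The 10 proximal tubule markers together summed to 12202, 9829 and 8775 CPM at days 2, 7 and 30, against 12000 CPM in untreated gate cells, all 10 detected in each. Slc34a1, on which the cells were selected, is among these 10 markers, so the sum is partly set by the gate. Its members differed in direction, as given below for Slc5a12 and Slc7a13. In the untreated gate the label held less cleanly. Summed markers of another cell type matched or exceeded the summed proximal tubule markers, Slc34a1 included, in 548 of its 3500 cells (15.7%). At days 2, 7 and 30 this held for 3, 1 and 3 cells. Of these 548 cells, 240 did so for distal convoluted and connecting tubule markers, 167 for thick ascending limb and 130 for endothelium, and some counted for more than one type.

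Free RNA in the droplets also differed between the libraries. Barcodes with the 3 immune genes at 20 or more, which should lack Slc34a1, had a Slc34a1 UMI in 4.16% of 6133 cells at day 2, 28.1% of 445 cells at day 7 and 21.0% of 2664 cells at day 30, against 94.8% of 77 cells in the untreated library, at median depths of 8119, 22608 and 8874 UMIs, against 3911. They reached the gate's minimum of 10 per 10000 in 0.114%, 0.225% and 0.300% of cells, against 28.6% in the untreated library. The share of the untreated gate that reached the minimum in this way was not tested. Kap was at 11.2, 153 and 404 CPM in these immune cells at days 2, 7 and 30, against 11937 CPM in untreated ones. Some results below are also given without the cells that carry another type's markers. Most list counts that moved without them stand in the closing section. The Y-linked transcript Ddx3y was at 63.8, 51.8 and 74.0 CPM in the day 2, 7 and 30 libraries, against 47.1 CPM in the untreated one, and Xist did not exceed 0.2 CPM in any, so the libraries did not differ in the sex of the animals by these transcripts. Between 4 and 20 barcodes were shared by any pair of libraries, none of them in both gates.

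For each comparison the UMIs of the gate cells were summed, a gene was measured where either gate had at least 20 CPM and both together at least 20 UMIs, and it was called higher or lower at 2-fold or more with an exact 95% counting interval of the ratio that excluded 1. By this rule of size 757 of 6039 measured genes (12.5%) were higher and 283 (4.69%) lower at day 2 than in untreated cells, 527 of 5851 (9.01%) were higher and 189 (3.23%) lower at day 7, and 494 of 5915 (8.35%) were higher and 167 (2.82%) lower at day 30. The 3 comparisons share the untreated library. The median measured gene stood 0.23, 0.26 and 0.22 above untreated on the log2 scale (with 10 CPM added to both), and list medians below are to be read against it. Rescaled so that this median was 0, the counts were 470 higher and 412 lower at day 2, 308 and 293 at day 7, and 312 and 290 at day 30.

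**Figure D2:**
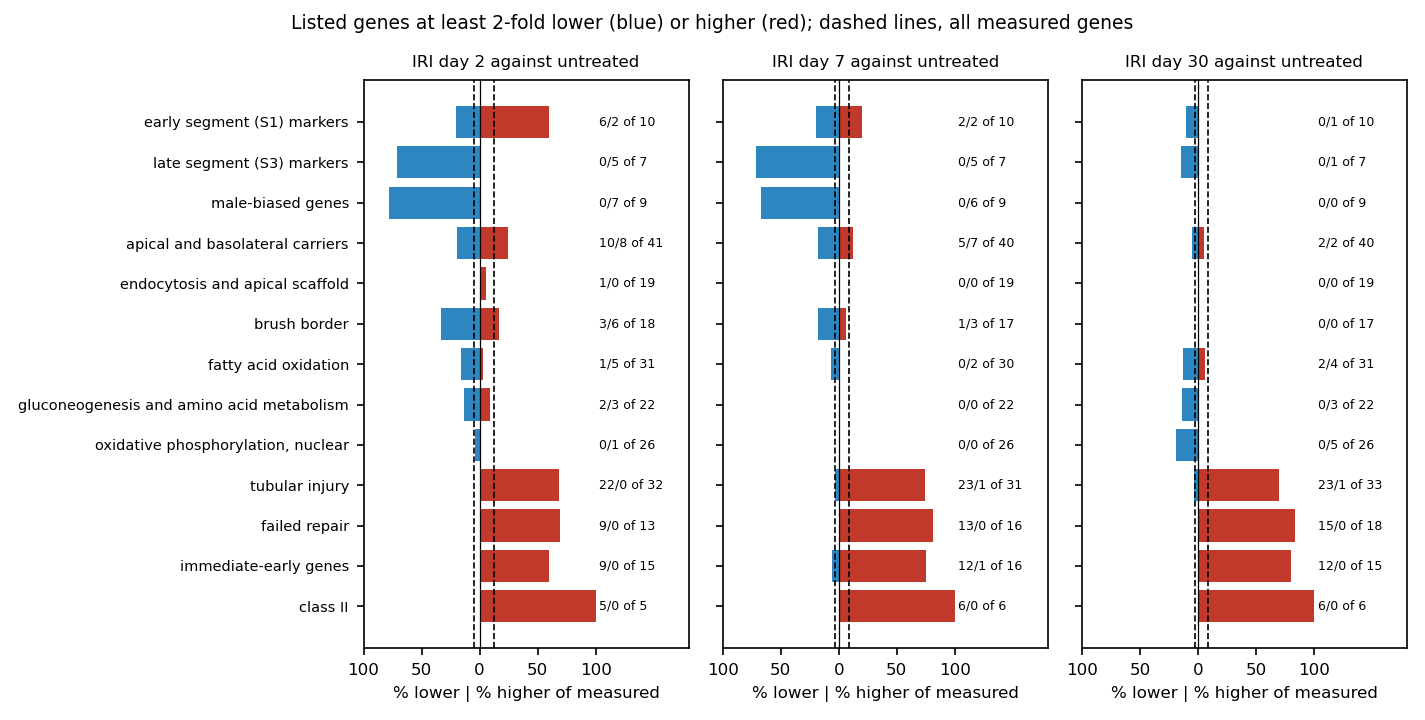
Percent of the measured members of each gene list that were at least 2-fold higher (red, to the right) or lower (blue, to the left) in each IRI gate than in untreated gate cells, with the counts (higher/lower of measured) beside each bar. The dashed lines mark the percentages over all measured genes; S3 and male-biased genes stand to the left at days 2 and 7 and at most 1 of them at day 30, while injury lists stand to the right at all 3 times.

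Genes of the endocytic machinery gave 1 call over the 3 times. Of 19 genes for endocytosis and the apical scaffold, all measured, 1 was higher at day 2 and none at day 7 or 30. None was lower at any time. Over all measured genes 12.5%, 9.01% and 8.35% were higher at days 2, 7 and 30, and 4.69%, 3.23% and 2.82% lower. Counts this small do not set the list apart from all genes. Lrp2 (chromosome 2, 69424340 to 69586065, minus strand, mm10) was at 1724, 912 and 1227 CPM at days 2, 7 and 30, against 1073 CPM in untreated cells. Its ratio to untreated was 1.61 (95% interval 1.53 to 1.68), 0.850 (0.801 to 0.902) and 1.14 (1.09 to 1.19), inside 2-fold each time. Cubn, its partner receptor, was at 232, 111 and 140 CPM, against 137 CPM in untreated cells. Amn, the membrane anchor of cubilin, was at 202, 240 and 175 CPM, against 220 CPM. The adaptor Dab2 was at 572, 587 and 451 CPM, against 325 CPM, and the scaffold Pdzk1, which holds Slc34a1 at the brush border, at 491, 498 and 403 CPM, against 395 CPM. The single call was the lysosomal protease Ctsb at day 2, at 621 CPM against 222 CPM in untreated cells (ratio 2.79, 2.58 to 3.02), with 1058 CPM in the whole day 2 library.

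Regulators of phosphate and vitamin D gave 2 calls higher of 10 measured at day 2, 1 of 9 at day 7, and 1 higher and 1 lower of 10 at day 30 (14 listed). Among all measured genes 12.5%, 9.01% and 8.35% were higher at days 2, 7 and 30, and 4.69%, 3.23% and 2.82% lower. These counts are too small to set the list apart from all genes. The hormone receptors were inside 2-fold: Pth1r, the parathyroid hormone receptor, was at 296, 286 and 257 CPM, against 360 CPM in untreated cells, Kl, the FGF23 coreceptor, at 340, 183 and 195 CPM, against 234 CPM, and Vdr at 78.8, 73.5 and 80.5 CPM, against 92.0 CPM. Cyp24a1, the enzyme that degrades active vitamin D, stood apart from them. It was at 32.3, 34.0 and 75.5 CPM at days 2, 7 and 30, against 13.9 CPM in untreated cells, a ratio of 2.32 (1.6 to 3.28), 2.45 (1.74 to 3.37) and 5.44 (4.43 to 6.65), and above the 2.68, 15.0 and 10.3 CPM of the whole IRI libraries. The day 2 call ended with the median gene set to 0 (1.98). Slc20a1, a widely expressed phosphate transporter counted among the carriers, was higher at all 3 times, at 26.0, 26.9 and 47.5 CPM, against 11.1 CPM, and Slc34a3, the second brush border phosphate transporter, was at 12.3 CPM at day 30, against 32.8 CPM in untreated cells (ratio 0.375, 0.234 to 0.572).

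Transcription factors of the proximal tubule gave few calls. Of 18 listed, 2 were higher at day 2 (14 measured), 1 at day 7 (14 measured) and 2 at day 30 (13 measured). None was lower. The shares over all measured genes were 12.5%, 9.01% and 8.35% higher and 4.69%, 3.23% and 2.82% lower, so these counts do not set the list apart. Hnf4a, the central regulator of proximal tubule identity, was at 234, 138 and 182 CPM at days 2, 7 and 30, against 161 CPM in untreated cells. Maf was higher at day 2, at 1927 CPM against 526 CPM (ratio 3.66, 3.50 to 3.83), and at 863 and 663 CPM at days 7 and 30. Pax8, a nephron lineage factor, was at 76.2, 124 and 140 CPM, against 40.5 CPM, called higher at day 7 (3.06, 2.57 to 3.63) and day 30 (3.45, 3.00 to 3.97); the whole libraries held 150 and 144 CPM at those times. Esrra, a regulator of mitochondrial genes, was higher at day 2 only by a ratio of 2.06 (1.70 to 2.47), which became 1.75 with the median gene set to 0, and Hnf4g was higher at day 30 by 2.14 (1.5 to 2.99), which ended as a call without cells of other types (1.995).

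The S1 and S3 lists differed in direction, and most S1 genes are also among the carriers counted further on. At day 2, 6 of 10 S1 genes were higher and 2 lower, at day 7 there were 2 and 2, and at day 30 there were 0 and 1, all 10 measured, with list medians of 1.16, 0.65 and -0.23 on the log2 scale. Of 10 S3 genes, 7 were measured, and 5 of them were lower at day 2, 5 at day 7 and 1 at day 30, none higher, with medians of -2.19, -1.79 and 0.04. Slc5a12 (chromosome 2, 110597298 to 110647779, plus strand), the S1 lactate carrier, was at 680, 357 and 228 CPM at days 2, 7 and 30, against 146 CPM in untreated cells, a ratio of 4.67 (4.32 to 5.05), 2.45 (2.22 to 2.70) and 1.56 (1.41 to 1.73). The amino acid exchangers Slc7a8 (143, 53.8 and 25.2 CPM, against 31.6 CPM) and Slc7a7 (336, 237 and 74.9 CPM, against 93.4 CPM) and the creatine enzyme Gatm (2022, 1190 and 629 CPM, against 738 CPM) were also higher at day 2. So was Slc6a19, the neutral amino acid carrier, at 310 CPM against 121 CPM in untreated cells. Slc5a2, the S1 glucose carrier SGLT2, was at 529, 459 and 256 CPM, against 255 CPM, and its day 2 ratio of 2.08 became 1.96 without cells of other types.

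The 2 S1 members that were lower at days 2 and 7 carry organic anions. Slc22a8 was at 72.6, 71.9 and 55.4 CPM at days 2, 7 and 30, against 225 CPM in untreated cells, lower at all 3 times, and Slc22a6 at 233, 228 and 490 CPM, against 576 CPM, lower at days 2 and 7.

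Slc7a13 (chromosome 4, 19818725 to 19842218, plus strand), the S3 aspartate and cystine carrier, was at 8.96 CPM at day 2, 38.0 CPM at day 7 and 365 CPM at day 30, against 374 CPM in untreated cells. Its ratio at days 2, 7 and 30 was 0.0240 (0.0115 to 0.0441), 0.101 (0.0748 to 0.135) and 0.977 (0.901 to 1.06). The S3 genes Acsm3, an acyl-CoA synthetase (18.8, 12.7 and 220 CPM, against 213 CPM), and Slc5a8, a monocarboxylate carrier (14.3, 22.1 and 73.3 CPM, against 101 CPM), were also lower at days 2 and 7 and not called at day 30. Atp11a, a lipid flippase, was lower at day 2 (95.9 CPM against 344 CPM) and at 182 and 441 CPM at days 7 and 30. Slc22a7, an organic anion carrier, had no UMI at days 2 and 7 and 27.4 CPM at day 30, against 66.2 CPM in untreated cells. With 3 UMIs in place of the 0, its ratio was at most 0.0406 at day 2 and at most 0.0358 at day 7, and it was 0.414 (0.305 to 0.550) at day 30, the 1 S3 call of that time.

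Male-biased genes were also low at days 2 and 7. All 9 listed, which include Slc7a13, Acsm3 and Slc22a30 of the S3 list, were measured. Of them 7 were lower at day 2, 6 at day 7 and none at day 30, none was higher at any time, and the list medians were -1.90, -1.32 and 0.04 on the log2 scale. Kap (chromosome 6, 133849851 to 133853762, minus strand) was at 2205, 9309 and 25057 CPM at days 2, 7 and 30, against 44514 CPM in untreated cells, a ratio of 0.0495 (0.0476 to 0.0515), 0.209 (0.205 to 0.213) and 0.563 (0.558 to 0.568). With the median gene set to 0, Kap was also called lower at day 30 (0.482) and Odc1 at day 7 (0.485). Slco1a1, an organic anion transporter, was at 30.5, 26.9 and 449 CPM, against 435 CPM, and Cyp2d9, a cytochrome P450 outside the list, at 1.79, 4.74 and 78.9 CPM, against 61.8 CPM. Cyp4b1 was at 330, 496 and 952 CPM, against 1255 CPM, lower at days 2 and 7, and Odc1 (235, 404 and 636 CPM, against 696 CPM) and Cyp2e1 (303, 546 and 756 CPM, against 681 CPM) were lower at day 2.

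Among single cells the differences were uneven. The median gate cell had 0, 0.919 and 153 Kap UMIs per 10000 at days 2, 7 and 30, against 266 in untreated cells, while the highest cell had 355, 817 and 1291, against 3757. Thinned to 2000 UMIs each, with no cell too shallow to be kept, 20.2% of gate cells at day 2 (17 of 84, exact interval 12.3 to 30.4%), 41.7% at day 7 (20 of 48) and 94.6% at day 30 (140 of 148) had a Kap UMI, against 99.9% of untreated gate cells. Unthinned, the shares were 26.2%, 72.9% and 100%, against 100%. Immune cells, which should lack Kap, had one in 2.59%, 9.66% and 47.6%, against 100% in the untreated library, so the untreated share lay at background and only the levels separate those cells. Slc7a13 after thinning was in 0 of 84 cells at day 2, which allows a share of up to 3.57%, in 8.33% at day 7 and in 30.4% at day 30, against 35.7% of untreated gate cells; unthinned it was in 3.57%, 18.8% and 52.0%, against 55.2%. Immune cells had it in 0.0652%, 0.225% and 1.80%, against 20.8%. Slc5a12 went the other way, with 59.5%, 47.9% and 31.8% at days 2, 7 and 30, against 20.6% of untreated gate cells, and immune cells in 0.293%, 0.449% and 0.563%, against 3.90% (unthinned gate shares 85.7%, 89.6% and 52.0%, against 35.6%).

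**Figure D3:**
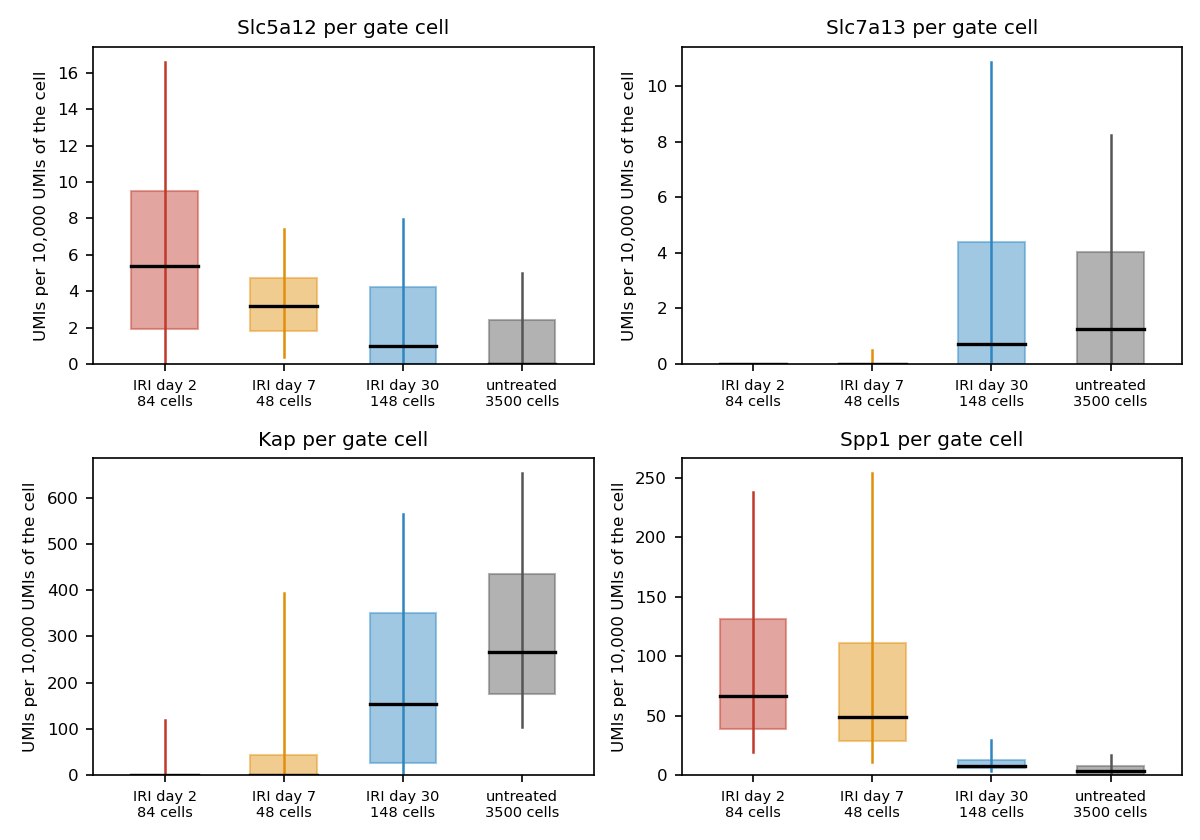
UMIs per 10000 in each gate cell for Slc5a12, Slc7a13, Kap and Spp1, as boxes (quartiles), bars (medians) and lines (10th to 90th percentile) for IRI days 2, 7 and 30 and untreated cells. The median for Kap was 0, 0.919, 153 and 266, and the median for Spp1 66.7, 48.4, 7.86 and 3.04, in that order.

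In every gate, cells with a Slc7a13 UMI held more Kap than cells without one. Kap was at 29868 CPM in the 3 day 2 cells with a Slc7a13 UMI and at 1640 CPM in the 81 without, at 38176 CPM in 9 day 7 cells with and 2348 CPM in 39 without, and at 38712 CPM in 77 day 30 cells with and 8187 CPM in 71 without, against 54976 CPM in 1932 untreated cells with and 22423 CPM in 1568 without. In cells with a Slc7a13 UMI the ratio to untreated was 0.543 (0.503 to 0.586), 0.694 (0.680 to 0.709) and 0.704 (0.697 to 0.711) at days 2, 7 and 30. In cells without one it was 0.0731 (0.0698 to 0.0766), 0.105 (0.101 to 0.109) and 0.365 (0.356 to 0.374). At day 30 the cells without a Slc7a13 UMI also had less Slco1a1 (95 CPM against 195 CPM in untreated cells without one, ratio 0.486) and less Acsm3 (25 CPM against 123 CPM, ratio 0.203), although neither gene was lower in the gate as a whole. A missing UMI does not show that a cell lacks the transcript, and cells without one had medians of 11259, 23848 and 9416 UMIs, against 3443 UMIs in untreated cells. At that lower depth more untreated cells with the transcript can fall among those without a UMI. The part of this in the ratios was not tested.

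Across all 42 carriers listed, 10 were higher and 8 lower of 41 measured at day 2, 5 and 7 of 40 at day 7, and 2 and 2 of 40 at day 30. Among all measured genes 12.5%, 9.01% and 8.35% were higher at days 2, 7 and 30, and 4.69%, 3.23% and 2.82% lower. The day 30 counts do not set the carriers apart from all genes. Slc4a4, the basolateral bicarbonate cotransporter, was inside 2-fold throughout (1950, 1302 and 1151 CPM, against 1134 CPM in untreated cells), while Slc27a2, a fatty acid transporter, was at 587, 1320 and 1747 CPM, against 988 CPM, and not called. Slc13a1, the brush border sulfate carrier, was at 677, 1501 and 765 CPM at days 2, 7 and 30, against 309 CPM, higher each time, though its day 2 ratio of 2.19 became 1.83 without cells of other types. Aqp1, the water channel, was lower at day 2 (49.3 CPM) and day 7 (75.9 CPM), against 194 CPM in untreated cells, and at 124 CPM at day 30. Abcc4, an efflux pump, was higher at day 2 (59.1 CPM against 10.3 CPM) and day 7 (23.7 CPM).

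**Figure D4:**
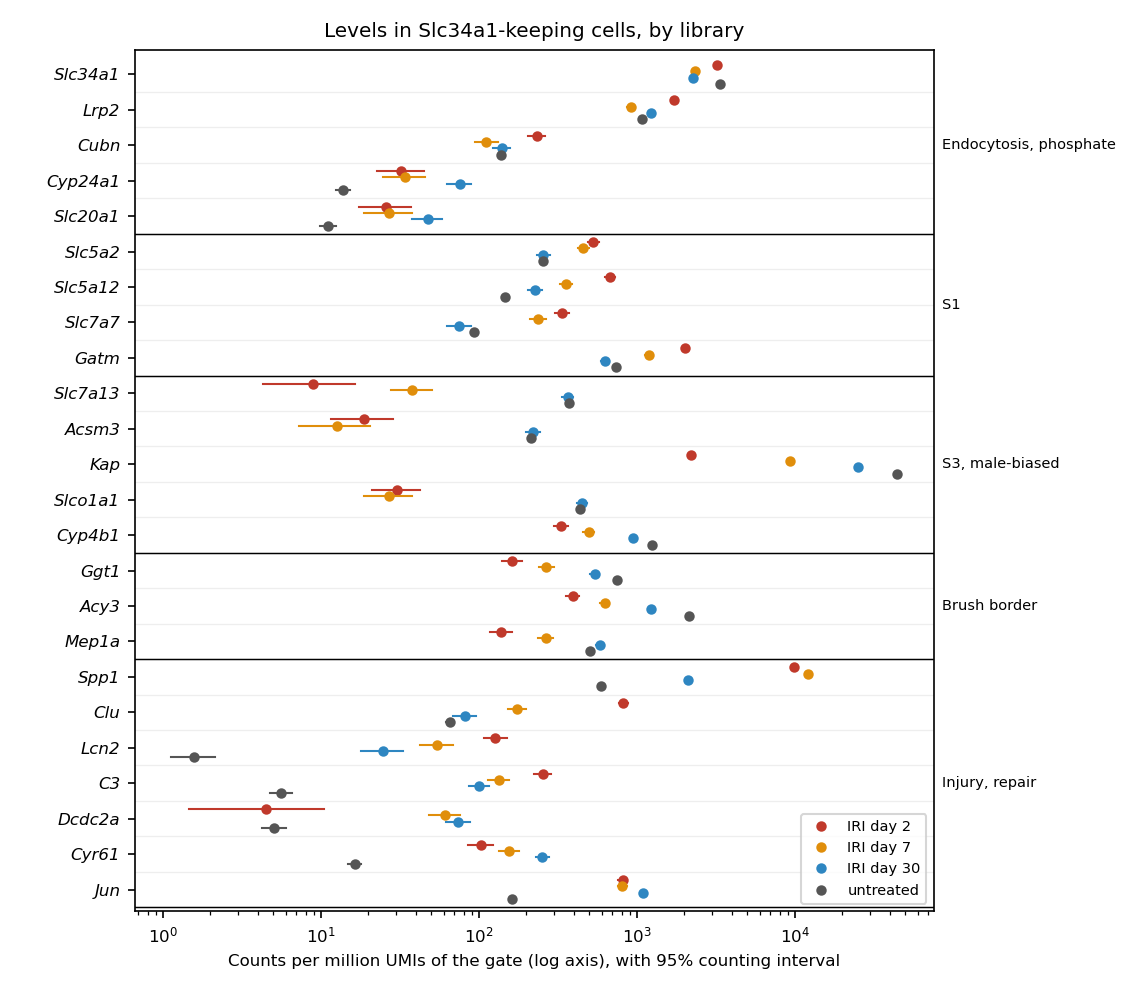
Summed level of 24 genes in the gate of each library in CPM on a log axis, with exact Poisson 95% intervals, for IRI days 2, 7 and 30 and untreated cells. Slc34a1 and Lrp2 lie close together across libraries, and Spp1 lies above untreated at all 3 times. The S1 genes shown lie highest at day 2, and the S3 and male-biased genes shown lie lowest at days 2 and 7. Slc22a6 and Slc22a8, the S1 genes that were lower at days 2 and 7, are not drawn.

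Several brush border enzymes were low early and near the untreated level at day 30. Of 19 brush border genes listed, 6 were lower and 3 higher of 18 measured at day 2, 3 and 1 of 17 at day 7, and none either way of 17 at day 30. Among all measured genes 4.69%, 3.23% and 2.82% were lower at days 2, 7 and 30, and 12.5%, 9.01% and 8.35% higher. Ggt1, which cleaves glutathione, was at 162, 267 and 540 CPM, against 748 CPM in untreated cells, and the aminoacylase Acy3 at 394, 625 and 1234 CPM, against 2145 CPM, both lower at days 2 and 7. Mep1a, a meprin subunit, was lower at day 2 (138 CPM against 504 CPM), at 265 CPM at day 7, where it was lower with the median gene set to 0 (0.439), and at 583 CPM at day 30. The other subunit gene, Mep1b, had no UMI at day 2, 2.37 CPM at day 7 and 28 CPM at day 30, against 39.3 CPM. Ace, angiotensin-converting enzyme, was at 4.48 CPM at day 2, against 33.0 CPM, and at 16.6 and 43.1 CPM later.

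Metabolic genes gave few calls, with list medians below that of all measured genes at each time. Over all measured genes 4.69%, 3.23% and 2.82% were lower at days 2, 7 and 30. In both lists that follow the lower share exceeded this at days 2 and 30. For fatty acid oxidation (34 listed) 5 were lower and 1 higher of 31 measured at day 2, 2 and 0 of 30 at day 7, and 4 and 2 of 31 at day 30, with medians of -0.41, -0.29 and -0.40 on the log2 scale. At day 2 Acadm, an acyl-CoA dehydrogenase, was at 311 CPM against 665 CPM in untreated cells (0.467, 0.419 to 0.520), and Hao2, a peroxisomal oxidase, at 139 CPM against 383 CPM. At day 30 the thiolase Acaa2 was at 25.2 CPM against 124 CPM (0.202, 0.147 to 0.272) and Acsl1 at 34.7 CPM against 81.6 CPM, while Pdk4, which restrains glucose oxidation, was at 20.7 CPM against 1.31 CPM. Of the 28 gluconeogenesis and amino acid genes 22 were measured; 2 were higher and 3 lower at day 2, none at day 7, and 3 lower at day 30, with medians of -0.14, -0.23 and -0.31 on the log2 scale. G6pc, the last enzyme of gluconeogenesis, was higher at day 2 (528 CPM against 199 CPM, ratio 2.66) and, with the median gene set to 0, lower at day 7 (0.469). Pck1, a rate-limiting one, was lower at day 2 (391 CPM against 843 CPM, ratio 0.463). So were the fructose enzyme Khk (284 CPM against 622 CPM) and Ttc36 (612 CPM against 1691 CPM) at day 2. Miox, which breaks down inositol, was at 1439, 1544 and 728 CPM, against 2543 CPM, lower at day 30 (0.286, 0.271 to 0.302), as was the glycine enzyme Gldc (15.1 CPM against 51.3 CPM).

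Oxidative phosphorylation genes of the nucleus, 26 listed and measured, included 1 lower member at day 2, none at day 7 and 5 at day 30, none higher, with medians of -0.57, -0.28 and -0.64 on the log2 scale. The lower shares over all measured genes were 4.69%, 3.23% and 2.82% at days 2, 7 and 30. With the median gene set to 0, Cox4i1 (0.429) and Cox5a (0.469) were also lower at day 2. The 5 at day 30 were Ndufv1 (128 CPM against 282 CPM), Uqcrc1 (143 CPM against 305 CPM), Cox4i1 (1095 CPM against 2303 CPM), Cox5a (574 CPM against 1218 CPM) and Atp5g1 (468 CPM against 970 CPM), with ratios between 0.454 and 0.482. Of 13 mitochondrially encoded genes 1 was lower at day 2 and none at days 7 and 30, with medians of -0.59, -0.72 and -0.44. The median mitochondrial share of a gate cell was 14.3%, 11.1% and 14.3% at days 2, 7 and 30, against 18% in untreated cells. Of 24 antioxidant and iron genes, 3 were higher and 2 lower of 22 measured at day 2, 3 and 0 of 21 at day 7, and 0 and 2 of 22 at day 30. The higher shares over all measured genes were 12.5%, 9.01% and 8.35%, and counts this small do not set the list apart. Of the 3 members called higher, 0 exceeded the whole library at day 2 and 3 did at day 7. Hmox1, heme oxygenase, was at 61.8, 42.7 and 28 CPM, against 15.3 CPM, and Slc40a1, the iron exporter, at 87.8, 85.4 and 30.2 CPM, against 27.9 CPM, both higher at days 2 and 7. Gpx3, the secreted glutathione peroxidase, was inside 2-fold (8837, 9516 and 5475 CPM, against 8685 CPM).

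Injury genes were higher in gate cells at every time although the gate held Havcr1 and Vcam1 down. Of 36 listed, 22 were higher and none lower of 32 measured at day 2, 23 and 1 of 31 at day 7, and 23 and 1 of 33 at day 30, with list medians of 1.32, 1.4 and 1.15 on the log2 scale. The lower one was Krt7, a keratin of collecting duct and urothelium, whose day 7 call ended without cells of other types. Spp1 (osteopontin, chromosome 5, 104435118 to 104441050, plus strand) was at 9820, 12167 and 2102 CPM at days 2, 7 and 30, against 596 CPM in untreated cells, a ratio of 16.5 (16.1 to 16.9), 20.4 (20.0 to 20.9) and 3.53 (3.4 to 3.66). Per cell its median was 66.7, 48.4 and 7.86 UMIs per 10000, against 3.04, and the lowest day 2 cell had 10.0. Immune cells of the same libraries had medians of 9.66, 28.3 and 10.2 per 10000, against 2.32 in untreated ones, so the day 30 gate median lay below that of its immune cells. Lcn2, a secreted iron-siderophore binder, was at 127, 54.6 and 24.6 CPM, against 1.58 CPM. Few cells carried it at day 2, where the median was 0 and the highest cell had 40.7 per 10000. Thinned, 7.14%, 8.33% and 5.41% of gate cells had an Lcn2 UMI, against 14 of 3500 untreated ones. In immune cells the thinned shares were 23.5%, 14.4% and 7.62%, against 6.49%. Immune cells may express Spp1 and Lcn2 themselves, which was not tested, so their values are no measure of free RNA for these 2 genes. S100a6 was at 616, 389 and 336 CPM, against 81.9 CPM, and S100a11 at 493, 537 and 385 CPM, against 125 CPM. Sox9, a progenitor and repair factor, was at 9.86, 28.5 and 36.9 CPM, against 0.999 CPM, and was measured and called higher at days 7 and 30. The actin-binding Tmsb10 (161, 151 and 218 CPM, against 15.0 CPM) and the membrane repair protein Myof (64.5, 66.4 and 73.3 CPM, against 7.76 CPM) were higher at all 3 times.

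Clu, the gene that drives the reporter, was at 819, 176 and 81.7 CPM at days 2, 7 and 30, against 65.4 CPM in untreated cells, a ratio of 12.5 (11.5 to 13.6), 2.68 (2.32 to 3.09) and 1.25 (1.05 to 1.48). The day 2 sum rested on few cells, with a median of 1.30, a 90th percentile of 4.79 and a highest cell of 130 per 10000. Thinned, 19.0%, 33.3% and 18.2% of gate cells had a Clu UMI, against 8.91% of untreated ones. In immune cells, which may express Clu themselves, they were 30.9%, 28.5% and 18.7%, against 11.7%. The whole libraries held more, at 2487, 1369 and 665 CPM, against 234 CPM. Without cells of other types the day 30 ratio was 2.35. With 10% of each gate's UMIs subtracted as free RNA of its library's composition, the day 7 ratio was 0.919 and the day 30 ratio 0.358, so no direction is given for Clu at those times, nor for a typical gate cell at day 2.

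Most injury genes were also abundant in the rest of the library. Of the members called higher, the gate level exceeded that of the whole library for 2 of 22 at day 2, 1 of 23 at day 7 and 3 of 23 at day 30. Cyr61, a matrix-associated target of YAP, was one of them each time: it was at 103, 156 and 252 CPM in the gates, against 16.4 CPM in untreated gate cells, and at 20.6, 79.8 and 94.3 CPM in the whole IRI libraries. Its ratio to untreated cells was 6.28 (5.06 to 7.73), 9.49 (7.98 to 11.3) and 15.4 (13.4 to 17.6). Gdf15, a stress-secreted cytokine, was at 61.8, 87.0 and 104 CPM, against 15.3 CPM, and exceeded its library at days 2 (42.7 CPM) and 30 (70.6 CPM). Subtracting free RNA of 10% left 17, 13 and 14 injury genes higher at days 2, 7 and 30, and 30% left 9, 3 and 8. With every cell weighted alike 11, 19 and 18 were higher.

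Genes of failed repair, which mark tubule cells that stay dedifferentiated and inflamed, were higher too. Of 28 listed, 9 of 13 measured were higher at day 2, 13 of 16 at day 7 and 15 of 18 at day 30, and none was lower. Of these higher members the gate level exceeded that of the whole library for 4 of 9 at day 2, 0 of 13 at day 7 and 1 of 15 (Pde1a) at day 30. C3, the central complement component, was at 254, 134 and 101 CPM at days 2, 7 and 30, against 5.61 CPM in untreated cells, a ratio of 45.2 (36.9 to 55.6), 24.0 (19.1 to 30.1) and 17.9 (14.3 to 22.5). At day 2 the gate exceeded the whole library for C3 (34.0 CPM), while at days 7 and 30 it stood below it (258 and 209 CPM). Cp, ceruloplasmin, was at 26.0, 88.6 and 89.5 CPM, against 3.34 CPM, Adamts1, a secreted protease, at 60.0, 136 and 188 CPM, against 22.2 CPM, and Nfkbiz, an NF-kappa-B cofactor, at 34.0, 45.9 and 22.9 CPM, against 6.88 CPM.

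Some of the list was high late and not at day 2. Dcdc2a was at 4.48, 60.9 and 73.8 CPM, against 5.07 CPM in untreated cells, Akap12 at 2.69, 74.3 and 62.1 CPM, against 7.46 CPM, and the neutrophil chemokine Cxcl1 at 2.69, 67.2 and 39.1 CPM, against 0.615 CPM. Cxcl2 was instead highest at day 2, at 211, 25.3 and 28 CPM, against 0.653 CPM, where the whole day 2 library held 2422 CPM. Subtracting free RNA of 10% left 6, 12 and 9 members of the failed repair list higher at days 2, 7 and 30, and 30% left 6, 4 and 6.

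Immediate-early genes, the fast transcription factors and phosphatases of stress signalling, were higher at all times: 9 of 15 measured at day 2, 12 of 16 at day 7 (with Klf2 lower, though not without cells of other types) and 12 of 15 at day 30, of 18 listed. Of these higher members 2 of 9, 0 of 12 and 0 of 12 exceeded the whole library at days 2, 7 and 30. Jun was at 816, 810 and 1088 CPM, against 162 CPM in untreated cells, a ratio of 5.03 (4.68 to 5.41), 4.99 (4.66 to 5.34) and 6.71 (6.35 to 7.08). Fosb was at 259, 183 and 256 CPM, against 29.6 CPM, Fos at 388, 251 and 361 CPM, against 98.1 CPM, Klf6 at 213, 263 and 257 CPM, against 32.7 CPM, and Dusp1 at 317, 106 and 169 CPM, against 38.4 CPM. The whole libraries held 746, 946 and 1488 CPM of Jun, against 564 CPM in the untreated library, so in untreated kidney the gate held less Jun than its library and at day 2 more. Without cells of other types the ratios of Jun were 7.95, 8.14 and 10.9, and those of Fos 7.85, 5.07 and 6.76 in place of 3.95, 2.56 and 3.68. Free RNA of 10% subtracted left 7, 12 and 10 members higher, and 30% left 5, 11 and 5.

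Of 22 cell cycle genes listed, 5 of 9 measured were higher at day 2, 2 of 7 at day 7 and 1 of 8 at day 30. The higher shares over all measured genes were 12.5%, 9.01% and 8.35%. Mki67, a proliferation marker, was at 52.9, 0.791 and 20.7 CPM, against 1.19 CPM in untreated cells. Thinned, it had a UMI in 6 of 84 cells (7.14%, 2.67 to 14.9%), 0 of 48 (which allows up to 6.25%) and 3 of 148 (2.03%), against 0.200% of untreated gate cells. Unthinned, the shares were 20.2%, 2.08% and 6.08%, against 0.457%. Immune cells, which can cycle themselves, had it in 16.1%, 22.7% and 7.55%, against 2.60%, above the gate in each library, and Mki67 was at 172, 84.0 and 61.0 CPM in the whole IRI libraries, so no cycling is read from these shares. Cell cycle arrest genes (20 listed) gave 3 higher of 11 measured at day 2, 3 of 8 at day 7 and 4 of 9 at day 30. Cdkn1a (p21) was at 24.2, 53.0 and 45.3 CPM, against 11.8 CPM, with the day 2 ratio of 2.04 reduced to 1.74 with the median gene set to 0. Gadd45g was at 25.1, 109 and 131 CPM, against 34.1 CPM, and at days 7 and 30 exceeded its whole library (49.9 and 90.8 CPM).

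Antigen presentation genes were higher together with haematopoietic RNA. Of 7 class II genes 5 of 5 measured were higher at day 2 and 6 of 6 at days 7 and 30. None of them exceeded its whole library at any time. Cd74, the invariant chain, was at 149, 692 and 827 CPM, against 20.8 CPM in untreated cells, H2-Aa at 69.9, 180 and 367 CPM, against 7.99 CPM, H2-Ab1 at 135, 300 and 324 CPM, against 11.9 CPM, and H2-Eb1 at 69.9, 179 and 308 CPM, against 6.38 CPM. The 13 haematopoietic markers, 12 or 13 of them detected in each gate and Cd3e at 0 at days 7 and 30, summed to 2404, 754 and 1054 CPM, against 22.1 CPM in untreated gate cells, and to 29858, 7687 and 11264 CPM, against 154 CPM, in the whole libraries. Among them Lyz2, the macrophage lysozyme, was at 232, 342 and 446 CPM, against 0.500 CPM, and S100a8 of neutrophils at 674, 41.1 and 32.4 CPM, against 3.61 CPM. In the whole day 7 library Cd74 was at 1864 CPM. Tyrobp, Fcer1g and Ctss are among the 13 markers and were capped by the gate. The marker sums of the gates are therefore partly set by it and are not weighed against Cd74. The part of immune RNA in the class II calls was not tested directly. Subtracting free RNA of 10% left 2, 6 and 5 class II genes higher, and 30% left 0, 3 and 0. Of 16 interferon and class I genes 3 of 5 measured were higher at day 2, 5 of 8 at day 7 and 4 of 7 at day 30, among them B2m (435, 320 and 248 CPM, against 113 CPM).

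Matrix and adhesion genes (23 listed) gave 5 higher of 15 measured at day 2, 8 of 15 at day 7 and 6 of 16 at day 30, none lower. Of these higher members 3 of 5, 0 of 8 and 0 of 6 exceeded the whole library at days 2, 7 and 30. The basement membrane collagen Col4a1 was at 143, 206 and 223 CPM, against 63.8 CPM in untreated cells, with a day 2 ratio of 2.25 that became 1.91 with the median gene set to 0. Fibronectin, Fn1, was at 17.9, 37.2 and 59.3 CPM, against 3.27 CPM, Sparc at 89.6, 183 and 173 CPM, against 51.6 CPM, and the parietal-type claudin Cldn1 at 26.9, 30.8 and 36.4 CPM, against 6.84 CPM. At day 30 the fibroblast collagens Col3a1 (188 CPM against 1.54 CPM) and Col1a1 (72.1 CPM against 0.346 CPM) were among the largest ratios. The 8 fibroblast, pericyte and smooth muscle markers summed to 52.9, 60.9 and 442 CPM, against 123 CPM, and to 54.7, 59.4 and 152 CPM, against 22.2 CPM, without the cells that carried another type's markers, 2 of them fibroblast-marked at day 30. Without those cells the ratio of Fn1 was 44.4 in place of 11.4 at day 7 and 51.1 in place of 18.1 at day 30, and Sparc was also higher at day 2 (3.97 in place of 1.74). Growth factor genes (17 listed) gave 3 higher and 1 lower of 11 at day 2, 2 and 1 of 11 at day 7, and 1 and 1 of 10 at day 30. Among all measured genes 12.5%, 9.01% and 8.35% were higher at those times, and 4.69%, 3.23% and 2.82% lower. The growth factor counts are too small to set that list apart. Hbegf, an EGF receptor ligand, was at 86.9, 84.6 and 76.6 CPM, against 33.0 CPM, and Angpt1 at 54.7, 26.1 and 5.59 CPM, against 14.6 CPM. The lower one was Egf, a product of the thick ascending limb and distal tubule, at 0.896, 2.37 and 3.36 CPM, against 144 CPM, or 71.8 CPM in untreated gate cells without those of other types.

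Of 5353 genes measured in all 3 comparisons, 159 (2.97%) were higher and 77 (1.44%) lower each time. The largest of the shared higher ratios belonged to Lyz2, C1qb and other macrophage genes, at the levels of immune markers given above. The largest shared lower ratios belonged to genes of other nephron segments and vessels, among them Wfdc15b (1.79, 0.791 and 2.24 CPM, against 158 CPM in untreated cells), Ppp1r1a (4.48, 0.791 and 2.80 CPM, against 83.2 CPM), and renin, Ren1 (0.896, 0 and 0 CPM, against 44.5 CPM). Umod, uromodulin of the thick ascending limb, was lower each time as well (39.4, 46.6 and 38.6 CPM, against 465 CPM). Thick ascending limb markers as a whole, all 7 detected, summed to 335, 383 and 329 CPM, against 1134 CPM in the untreated gate and 719 CPM there without cells of other types, where Umod was at 244 CPM, Wfdc15b at 95.5 CPM and Ppp1r1a at 42.2 CPM. Without cells of other types in any gate, 827 genes were higher (14.0%) and 244 lower (4.12%) at day 2, 651 (11.1%) and 149 (2.55%) at day 7, and 610 (10.4%) and 129 (2.21%) at day 30.

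Comparing the day 30 gate with the day 2 gate leaves the untreated library out. Of 6285 measured genes 303 (4.82%) were higher and 361 (5.74%) lower at day 30, and without cells of other types 4.90% and 5.57%. Male-biased genes were higher in 7 of 9 and S3 genes in 5 of 7, none lower, and S1 genes were higher in 1 and lower in 7 of 10. Kap was at 25057 CPM at day 30 against 2205 CPM at day 2, and Slc7a13 at 365 CPM against 8.96 CPM. Injury genes went both ways, with 6 higher and 8 lower of 35, and Spp1 was at 2102 CPM against 9820 CPM. Failed repair genes were higher in 7 and lower in 3 of 19, Dcdc2a at 73.8 CPM against 4.48 CPM.

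Inside the day 7 and day 30 libraries the gate could be set against 2 neighbouring sets of the same library, which share its capture and sort. The first held cells with Slc34a1 at 10 or more that missed the gate only through Vcam1 or Havcr1 (27 cells at day 7, 39 at day 30), and the second held cells with Slc34a1 under 10, Vcam1 or Havcr1 at 3 or more and Lrp2 at 3 or more (63 and 82 cells). At day 2 they held 7 and 8 cells and were not compared. Since the same transcripts define the sets, the differences are a description of them and no test. Median depth was 23857 UMIs in the day 7 gate, against 23618 and 25685 in the first and second sets, and 10166.5 in the day 30 gate, against 12406 and 9888. The median mitochondrial share of a cell was 11.1% in the day 7 gate, against 7.32% and 5.42%, and 14.3% in the day 30 gate, against 6.66% and 4.95%, and its part in the differences was not tested.

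Against the second set, the day 30 gate had 420 of 7166 measured genes higher (5.86%) and 1284 lower (17.9%). Carriers were higher in 24 of 40, S1 genes in 8 of 10, male-biased genes in 8 of 9 and gluconeogenesis and amino acid genes in 17 of 21 (1 lower), and all 13 mitochondrially encoded genes were higher. Gatm was at 629 CPM in the gate against 67.4 CPM, Miox at 728 CPM against 52.6 CPM and Kap at 25057 CPM against 8658 CPM. Of 19 endocytosis genes 2 were called, both higher in the gate: Lrp2 (1227 CPM against 476 CPM) and Cubn (140 CPM against 53.7 CPM). Lrp2 also helped to define the second set. Injury genes were lower in 31 of 36 and failed repair genes in 22 of 25. Spp1 was at 2102 CPM in the gate against 8650 CPM, C3 at 101 CPM against 481 CPM, Dcdc2a at 73.8 CPM against 442 CPM and Sox9 at 36.9 CPM against 187 CPM. Hnf4a (182 CPM against 155 CPM), Cyr61 (252 CPM against 273 CPM), Jun (1088 CPM against 1275 CPM) and Gdf15 (104 CPM against 144 CPM) were inside 2-fold. Jun does not stand for its list: immediate-early genes were lower in the gate in 10 of 17, among them Atf3, Egr1 and Fos, and none was higher.

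Against the cells that kept Slc34a1 but carried Vcam1 or Havcr1 at day 30, the gate had 157 of 6831 genes higher (2.30%) and 667 lower (9.76%). Carriers were higher in 10 of 39 and male-biased genes in 7 of 9, injury genes lower in 16 of 33 and failed repair genes in 19 of 23. Immediate-early genes were lower in 9 of 16 and none was higher. Slc34a1 itself was at 2263 CPM in the gate against 1524 CPM, Miox at 728 CPM against 209 CPM, Spp1 at 2102 CPM against 8914 CPM, and Sox9 at 36.9 CPM against 302 CPM. Slc13a1 (765 CPM against 860 CPM) and Cyp24a1 (75.5 CPM against 61.0 CPM) were inside 2-fold.

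At day 7 S1 and metabolic genes were again higher in the gate. Against the second set 387 of 6818 genes were higher (5.68%) and 949 lower (13.9%), with S1 genes higher in 8 of 10, gluconeogenesis and amino acid genes in 19 of 22, fatty acid oxidation genes in 11 of 30, injury genes lower in 24 of 35 and failed repair genes in 22 of 25. Slc5a12 was at 357 CPM in the gate against 37.7 CPM, Pck1 at 727 CPM against 43.9 CPM, and Spp1 at 12167 CPM against 33206 CPM. Against the cells that kept Slc34a1 and carried Vcam1 or Havcr1, where 203 of 6357 genes were higher (3.19%) and 370 lower (5.82%), S1 genes were higher in 7 of 10 and injury genes lower in 14 of 34. Slc5a12 was at 357 CPM against 104 CPM, while Slc7a13 (38.0 CPM against 39.2 CPM) and Kap (9309 CPM against 8625 CPM) were inside 2-fold, and Cyr61 was higher in the gate (156 CPM against 64.5 CPM). Male-biased genes were higher in 3 and lower in 1 of 8 there. Against the second set they were higher in 7 of 8, Kap and Slc7a13 among them. Immediate-early genes were higher in 4 of 15 against the first set, none lower, and lower in 4 of 16 against the second, none higher.

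**Figure D5:**
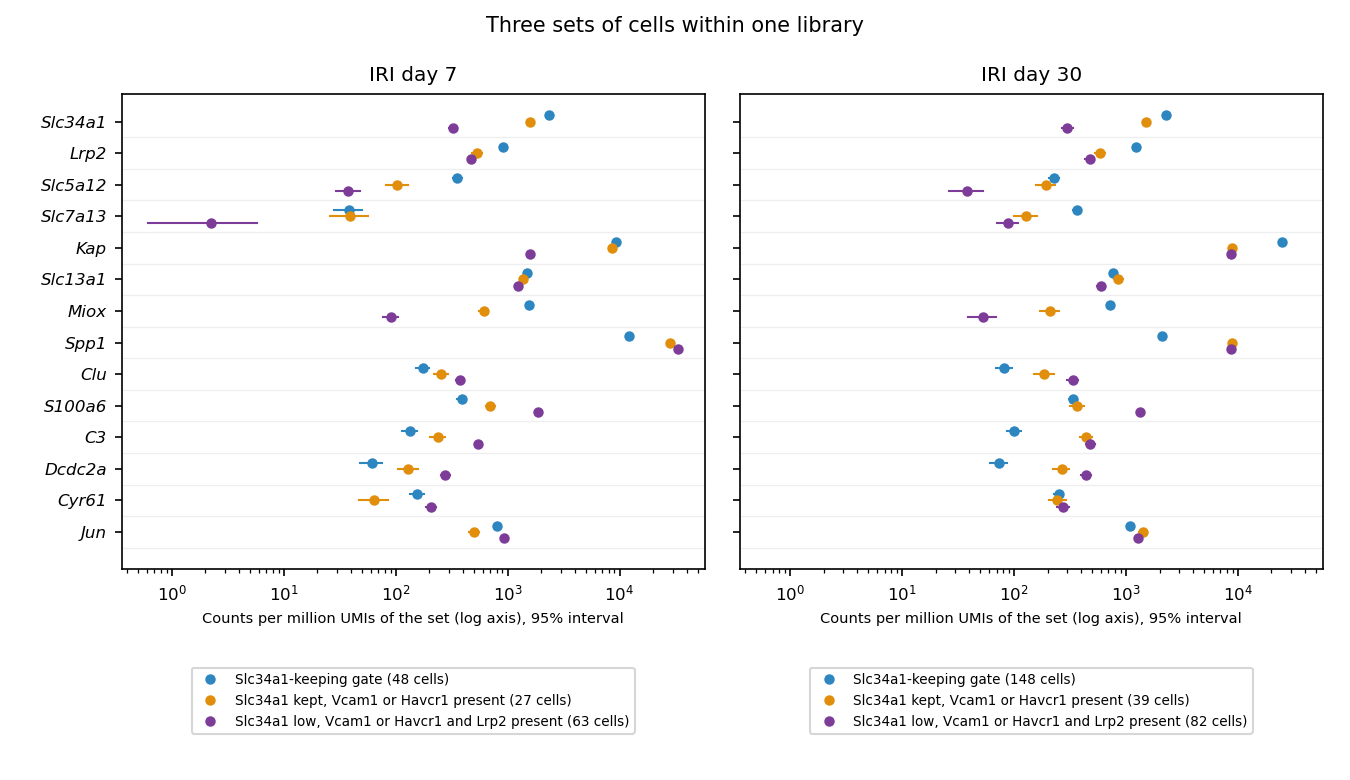
CPM on a log axis, with exact Poisson 95% intervals, of 14 genes in the Slc34a1-keeping gate, in cells that kept Slc34a1 and carried Vcam1 or Havcr1, and in cells with low Slc34a1, Vcam1 or Havcr1 and Lrp2, within the day 7 library (left) and the day 30 library (right). Miox lies highest in the gate and Spp1, C3 and Dcdc2a lie lowest there in both libraries, while Jun and Slc13a1 lie close together. No other immediate-early gene is drawn beside Jun.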

How the data were processed

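UMI counts per gene and barcode for 4 sorted single-cell libraries were used as deposited by the authors. The submitters' processing notes name Cell Ranger 7.0.1 and mm10, while the matrix headers carry software version 3.0.1, and the sources used here do not give the annotation or the cell calling rule. The table holds 27998 genes, and 5 members of the gene lists were not in it. No column of per-sample values was left unused (0). Gene positions came from GENCODE vM21 on mm10.

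Gate UMIs were summed per library and scaled to CPM. Ratios have exact binomial 95% intervals, levels exact Poisson intervals and shares Clopper-Pearson intervals. Where no cell of a gate had a UMI after thinning, the limit given for the share is 3 cells of that gate, not the Clopper-Pearson bound. A gene at 0 UMIs was given a floor of 3 counts in its gate for the ratio, and list medians use 10 CPM added to both levels. Such intervals cover counting error only. Shares of cells with a UMI were compared after thinning to 2000 UMIs. The ratio rule was run on simulated counts with known fold changes, drawn from the untreated gate with counting error only. Such counts hold no spread between cells or libraries and no added free RNA, so the rule was not tested against these. Python 3.11.15, numpy 2.4.6, scipy 1.17.1, pandas 2.3.3, scanpy 1.11.5 (Scrublet) and matplotlib 3.10.9 were used. Scrublet called 7.55%, 0.518% and 8.35% of barcodes as doublets at days 2, 7 and 30, and 0.0108% in the untreated library, where it has not worked. In the gates it called 5, 0 and 4 cells at days 2, 7 and 30, and 0 in the untreated gate, and none was removed.

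The gate, the 24 gene lists and the 12 marker lists were chosen with earlier results of these data known. Genes were named by a rule: per list up to 3 higher and 3 lower genes of largest ratio, or the 2 most abundant where none was called, plus the 10 largest ratios over all genes of at least 50 CPM in each direction. Of 123 genes given with gate levels or ratios 90 were named by it, and 33 further list members were named after their values were seen, among them Cubn, Hnf4a, Slc5a2, Slc6a19, Aqp1, Mep1a, Gdf15, Jun, Fos, Dcdc2a, Akap12 and Col4a1. Alternatives covered the gate limits, depth, scaling, free RNA, the size rule and, added after seeing the data, cells with markers of another type removed.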

Additional observations from a re-analysis of the deposited data

Results flagged for a closer look

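Glutathione S-transferases, which couple glutathione to reactive compounds, had ratios on opposite sides of 1 at different times. Gsta2 was at 587 CPM at day 7, against 292 CPM in untreated cells (ratio 2.01, higher), and at 131 CPM at day 30, against 292 CPM (ratio 0.448, lower). Gsta4 was at 43.9 CPM at day 2, against 21.7 CPM in untreated cells (ratio 2.03, higher), and at 5.59 CPM at day 30, against 21.7 CPM (ratio 0.258, lower). The difference between the times was not tested, each time is 1 library, and the comparisons share the untreated library. Without cells of other types the day 7 ratio of Gsta2 was 1.86, and Gsta4 was no longer measured at day 30. Scaled to the median gene, Gsta2 at day 7 was 1.68 and Gsta4 at day 2 was 1.72, inside 2-fold. Gsta4 at day 2 lay below untreated cells with a Slc34a1 minimum of 5 (0.819), after thinning (0.102) and with every cell weighted alike (0.552). No direction is therefore drawn for Gsta4 at day 2.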

How the results depend on the processing

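No paired analysis was possible because each group was 1 library, and for the same reason no library could be left out of a group. Of the counts over all genes 103 stayed within 1.5 times their value across settings and 43 did not; of gate shares 21 stayed inside their interval and 15 did not. Of list counts 2782 were classed as the same and 722 as moved. Cells with a Slc7a13 UMI alone were not analysed as a setting at days 2 and 7, where there were under 10 of them. Where counts over all genes moved, they are given for days 2, 7 and 30 against untreated. At 1.5-fold, 1851, 1624 and 1571 genes were higher and 606, 386 and 452 lower, and day 30 against day 2 gave 645 higher and 732 lower. With at least 50 CPM and 50 UMIs, 313, 261 and 203 were higher and 155, 90 and 81 lower, and day 30 against day 2 gave 149 and 165. With no CPM minimum 1594, 1157 and 1434 were higher and 514, 465 and 457 lower, and day 30 against day 2 gave 455 higher. Centred on the median gene, 470, 308 and 312 were higher, and 293 and 290 lower at days 7 and 30. In cells above the lowest day 7 UMI total, 1634, 994 and 1206 were higher. With a mitochondrial ceiling of 20%, 438, 288 and 278 were lower, and with mitochondrial genes left out of the total 285 were lower at day 7. At day 30, 259 were lower with a Slc34a1 minimum of 5, 293 in cells without a Slc7a13 UMI and 337 after thinning each cell to 2000 UMIs, where day 30 against day 2 gave 174 higher and 156 lower. With free RNA of 30% subtracted 460 were lower at day 2, and day 30 against day 2 gave 464 higher and 594 lower.

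The gate's share of kept barcodes was 0.745%, 1.5% and 1.05% at days 2, 7 and 30, against 38.6% untreated, with a Slc34a1 minimum of 20, and 2.78% at day 30, against 68.6% untreated, with one of 5. A mitochondrial ceiling of 20% gave 0.701% at day 2 and 1.55% at day 30, against 45.6% untreated. Cells above the lowest day 7 UMI total gave 1.18% at day 2 and 3.44% at day 30, against 60.4% untreated. The untreated share was 59.9% after thinning, 46.0% with Lrp2 of at least 3 required and 45.1% without cells of other types.

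For named genes 7642 values kept their direction and call, 189 lost and 225 gained a call, and 17 turned round. With free RNA of 10% subtracted Clu turned to 0.919 at day 7 and 0.358 at day 30. With 30% subtracted the ratio was 0 for S100a11 at day 2, 0.0550 for Adamts1 at day 7, and 0.644 for Col4a1 and 0 for B2m, Ctsb and Sparc at day 30. In day 30 against day 2 the same subtraction gave 0.237 for Col4a1, 0.376 for Klf6 and 0 for Cp and Sparc. In cells without a Slc7a13 UMI at day 30 Acsm3 was 0.203 and Slco1a1 0.486. Gsta4 at day 2 was 0.819 with a Slc34a1 minimum of 5, 0.102 after thinning and 0.552 with every cell weighted alike. The cause was not tested. Centring on the median gene ended the day 2 calls of Slc13a1 (1.87), Slc20a1 (1.99), Slc5a2 (1.77), the day 7 calls of Abcc4 (1.93) and Gsta2 (1.68), and the day 30 calls of B2m (1.88) and Hbegf (1.99). It added lower calls at day 2 for Cox4i1 (0.429), Cox5a (0.469) and Miox (0.481). At day 7 it added Ace (0.421), Atp11a (0.442), G6pc (0.469), Mep1a (0.439) and Odc1 (0.485), and at day 30 Acy3 (0.493) and Slc6a19 (0.473). It also ended the day 2 calls of Cdkn1a (1.74), Col4a1 (1.91), Cyp24a1 (1.98), Esrra (1.75) and Gsta4 (1.72), and the day 30 call of Hnf4g (1.83). Without cells of other types 23, 25 and 28 injury genes, 11, 15 and 14 immediate-early genes and 5, 6 and 5 interferon and class I genes were higher at days 2, 7 and 30. Fatty acid oxidation genes were then higher in 4 at day 2 and 1 at day 7. Brush border genes gave 2 higher at day 2, 4 lower at day 7, and 1 higher and 1 lower (Dpep1) at day 30. There were 4 gluconeogenesis and amino acid genes lower at days 2 and 30. Cell cycle arrest genes were higher in 4 at day 2 and 5 at day 7, cell cycle genes in 2 at day 30, and growth factor genes gave 2 higher and 2 lower at day 2 and 1 higher at day 7. Genes under 20 CPM in both gates were left out.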

Other observations

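A few secreted proteins better known from other tissues stood out among the largest ratios over all genes. Cfi, complement factor I, the protease that inactivates C3b, was at 20.6, 75.1 and 19.6 CPM at days 2, 7 and 30, against 1.15 CPM in untreated gate cells, and at 1.00, 17.7 and 7.66 CPM in the whole IRI libraries, so the gate exceeded its library each time. Serpina10, an inhibitor of coagulation proteases, was at 1.79, 61.7 and 22.9 CPM, against 0.0769 CPM. Aoc1, diamine oxidase, was at 51.1, 54.6 and 16.8 CPM, against 0.922 CPM.

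Heat shock genes gave 1 lower of 11 measured at day 2, 1 higher of 10 at day 7 and none of 12 at day 30 (12 listed). Without cells of other types 1 was higher and 1 lower of 10 at day 2, and 3 of 12 were higher at day 30. Metallothionein and zinc genes gave 1 higher of 4 measured at days 2 and 7 and none of 3 at day 30 (8 listed). Among all measured genes 12.5%, 9.01% and 8.35% were higher at days 2, 7 and 30, and 4.69%, 3.23% and 2.82% lower. Counts this small set neither list apart from all genes. In the other comparison, day 30 against day 2, heat shock genes were higher in 3 of 12, and 3 of 5 metallothionein and zinc genes were lower. All measured genes were there higher in 4.82% and lower in 5.74%.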
